A study of Mus musculus with 36 samples.

Results

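Scx, Tnmd, Mkx, Thbs4, Tnc, Postn, Ctgf, Fmod, Comp and Aebp1, genes of tendon and of the matricellular proteins, were followed across 2 skeletal muscles of mice with muscle-specific deletions of estrogen-related receptors (ERRs). They are 10 of the 17873 genes with a value, and they were chosen partly from measured values: Scx, Tnc, Postn, Thbs4 and Aebp1 were picked because they were higher in knockout soleus. The soleus knockout contrasts of these genes are therefore given as a description, with no test. Tests are given for the extensor digitorum longus (EDL), a fast muscle of the lower leg, and, for the genes not picked by their soleus values, for the comparison of wild-type soleus with wild-type EDL. How Tnmd varied with the other genes within groups is also tested, in both muscles. All 10 genes had a value in all 36 libraries, and all 10 passed the filter on low values.

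The study sequenced RNA of whole EDL and soleus, a slow calf muscle, from 1-year-old male mice of the C57BL/6JBom background kept at about 22 °C. There were 3 deletion classes: ERRalpha mKO (a muscle knockout of 1 receptor), ERRbeta/ERRgamma dmKO and ERRalpha/ERRgamma dmKO (muscle knockouts of 2 receptors), each beside its own WT littermates. Each muscle of each class had 3 WT and 3 knockout libraries, which makes 12 groups of 3 from 22 animals, 14 of which gave both muscles. By the names of the data columns the wild-type mice carried the floxed alleles without Cre recombinase and the knockout mice carried them with it. Cre was driven by the human alpha-skeletal actin (HSA) promoter, which is active in muscle fibres, so fibroblasts, tendon cells, vessels and immune cells of a dissected muscle are not its target. Every direction below rests on that reading of the column names, and the groups are called knockout-labelled for that reason. The EDL columns of the ERRalpha class name no class and were placed by animal number, since the same numbers appear on soleus columns that do name it. Library numbers are names only, and how much tendon was left on a dissected muscle is not given in the sources used here.

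ERRs are nuclear receptors that bind DNA without a known natural hormone and switch on genes of mitochondria and oxidative metabolism in muscle. Tendon is built by fibroblast-like cells whose transcription factors, Scleraxis (Scx, a basic helix-loop-helix protein that binds E-boxes) and Mohawk (Mkx, a homeobox protein), switch on collagen genes and Tenomodulin (Tnmd), a membrane protein of mature tendon cells. Fibromodulin (Fmod), a small leucine-rich proteoglycan, binds collagen fibrils, and the thrombospondins Comp and Thbs4 link collagen and other matrix proteins at tendon and at the junction of muscle and tendon. Tenascin-C (Tnc), periostin (Postn) and connective tissue growth factor (Ctgf, also named Ccn2) are matricellular proteins, secreted proteins that alter how cells sense and rebuild matrix, and they are known to respond to load, injury and TGF-beta. Aebp1 encodes a secreted collagen-binding protein, also called aortic carboxypeptidase-like protein, that takes part in collagen assembly.

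On GRCm38, by the GENCODE annotation, Scx lies on chromosome 15 at 76457452 to 76459458 (plus strand) and Aebp1 on chromosome 11 at 5861947 to 5872088 (plus strand). Thbs4 lies on chromosome 13 at 92751590 to 92794818 (minus strand), and Comp on chromosome 8 at 70373558 to 70382066 (plus strand). Tnc lies on chromosome 4 at 63959785 to 64047015 (minus strand), Postn on chromosome 3 at 54361109 to 54391037 (plus strand), and Ctgf on chromosome 10 at 24595442 to 24598683 (plus strand). Fmod lies on chromosome 1 at 134037254 to 134048277 (plus strand), and Tnmd on chromosome X at 133850980 to 133865577 (plus strand). Scx lies within the span of Bop1, a ribosome biogenesis gene on the opposite strand (76452989 to 76477277). The library kit keeps the strand, but whether the counting used it is not given in the sources used here, so reads of Scx and Bop1 may have been shared.

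RefSeq windows of the 250 bases before a transcription start (GRCm38.p6) were available for 6 of the 10 genes: Tnmd, Thbs4, Tnc, Postn, Fmod and Aebp1. Those of Aebp1, Thbs4 and Tnc are shown, because Aebp1 was higher in both muscles of the ERRalpha/ERRgamma knockout-labelled mice, and Thbs4 and Tnc were high together in 2 soleus libraries of the ERRbeta/ERRgamma class. Capitals mark E-boxes (CANNTG, the same on both strands), the letters that Scx and other basic helix-loop-helix proteins bind. Each window reads 5′ to 3′ on the strand of the gene.
Aebp1, chr11:5861616-5861865, plus strand: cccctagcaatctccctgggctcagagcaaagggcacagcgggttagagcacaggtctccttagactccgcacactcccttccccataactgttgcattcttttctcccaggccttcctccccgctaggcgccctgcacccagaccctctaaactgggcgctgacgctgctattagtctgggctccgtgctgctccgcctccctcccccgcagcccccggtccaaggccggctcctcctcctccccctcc
Thbs4, chr13:92794819-92795068, minus strand: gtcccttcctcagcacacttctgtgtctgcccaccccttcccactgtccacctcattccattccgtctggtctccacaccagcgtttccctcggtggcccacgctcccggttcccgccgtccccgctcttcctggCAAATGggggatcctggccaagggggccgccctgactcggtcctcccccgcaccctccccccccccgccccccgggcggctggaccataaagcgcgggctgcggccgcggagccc
Tnc, chr4:64047016-64047265, minus strand: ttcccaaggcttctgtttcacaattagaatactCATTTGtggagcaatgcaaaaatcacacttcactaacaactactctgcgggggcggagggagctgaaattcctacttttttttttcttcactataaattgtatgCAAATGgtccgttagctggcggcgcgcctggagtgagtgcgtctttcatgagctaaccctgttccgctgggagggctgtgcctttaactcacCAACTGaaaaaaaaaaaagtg
The Tnc window shown held 3 E-boxes and that of its other start 2, the Thbs4 window held 1, and the Aebp1 window held 0. Among the other windows, that of Fmod held 1 and those of Tnmd and Postn held 0. An E-box was present in 66.2% of all 32536 windows of this length, so such a match is common. The ERR half-site AAGGTCA, searched on both strands, was in 4.09% of all windows and in none of the members' windows. These are matches of letters within the window and say nothing of binding.

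Values are log2 of a quantile-normalised signal whose unit before the logarithm is not given, so a difference of 1 on this scale is a fold change of 2, and levels are not compared between genes. Libraries held values for 13689 to 14975 genes. The summed slow-fibre markers separated the muscles, at 13.29 to 14.32 in soleus and 4.04 to 7.12 in EDL on the log2 scale. Among the receptor genes, Esrra (ERRalpha) was lower in the ERRalpha/ERRgamma class, with a log2 difference of -2.23 ± 0.116 (SE, 3 libraries a group) in EDL and -0.57 ± 0.116 in soleus. Esrrb (ERRbeta), which is not deleted in that class, was lower there in EDL at -1.6 ± 0.209. In the ERRalpha class the difference of Esrra was -0.19 in EDL and 0.33 in soleus. The deleted Esrrg (ERRgamma) was not lower: its difference was 0.48 in EDL and 1.09 in soleus of the ERRbeta/ERRgamma class, and 0.51 and 1.21 in the ERRalpha/ERRgamma class. The deleted Esrrb differed by -0.18 in EDL and 0.28 in soleus of the ERRbeta/ERRgamma class. A whole-gene signal need not show the loss of an exon. That of Esrra was nonetheless much lower in ERRalpha/ERRgamma EDL, with means of 3.09 in knockout-labelled and 5.33 in wild-type libraries. Esrra of the ERRalpha class showed no such drop, with means of 5.01 against 5.2 in EDL and 5.85 against 5.52 in soleus. Receptor values of the ERRalpha and ERRbeta/ERRgamma classes thus do not clearly show the deletion, and most of the labels stay unchecked. The reason was not tested. In the ERRbeta/ERRgamma knockout-labelled soleus, libraries 1 and 3 had marker sums above library 2 and above their wild type. Summed macrophage markers were 8.4 and 6.74 against 5.32 in library 2 and 4.84 to 6.6 in the wild type. Summed fibroblast markers were 8.32 and 8.65 against 6.84 in library 2 and 6.69 to 8.01 in the wild type. The macrophage sum of library 3 was only just above its wild type. Neither that sum nor the fibroblast sum of library 1 exceeded the highest sums of ERRalpha/ERRgamma soleus, given below. Results that rest on these libraries are given with and without them.

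**Figure D1:**
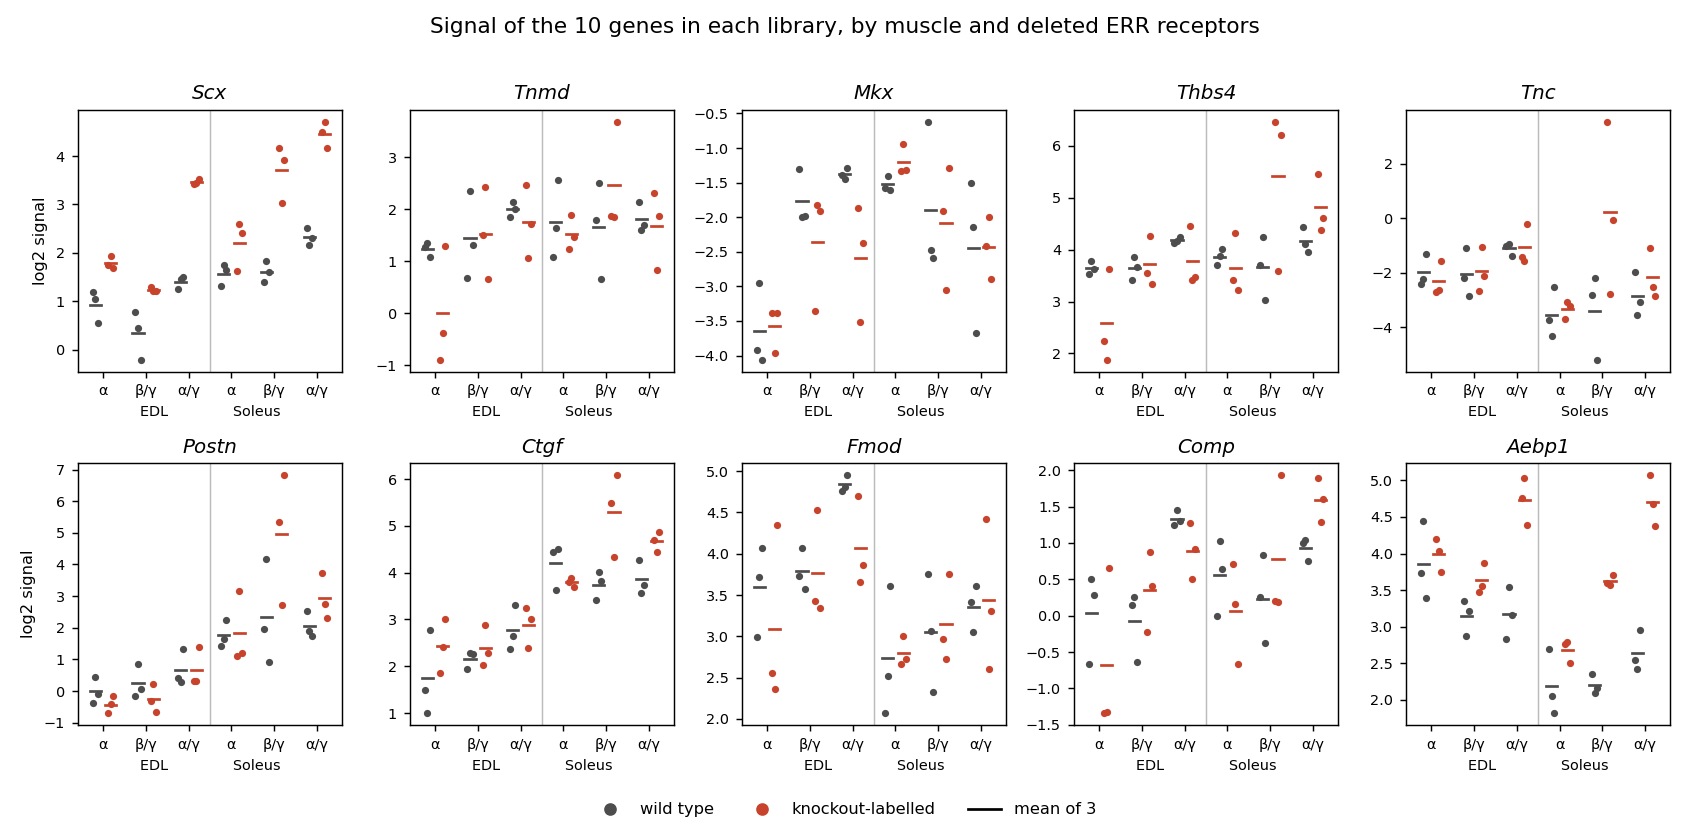
Each panel shows the log2 signal of 1 gene in each library, by muscle and deletion class (grey, wild type; red, knockout-labelled; bar, mean of 3 libraries). For Scx and Aebp1 red and grey points stand apart in both muscles of the ERRalpha/ERRgamma class, with Scx at 3.42 to 3.53 against 1.26 to 1.49 in EDL, and of the ERRbeta/ERRgamma class, with Scx at 1.2 to 1.3 against -0.21 to 0.77 in EDL. All red points would lie above all grey points for 26.4% of all genes in EDL and 21.7% in soleus of the ERRalpha/ERRgamma class. In the ERRbeta/ERRgamma class this holds for 10.2% in EDL and 9.13% in soleus.

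The first question was whether the genes also differed in EDL, a muscle that the choice of genes did not use. In ERRalpha/ERRgamma EDL, Scx and Aebp1 rose and the other 8 genes did not pass the test. Scx was at 3.42, 3.45 and 3.53 in the knockout-labelled libraries and at 1.26, 1.46 and 1.49 in the wild type. The 2 groups lay far apart relative to the spread within each, 3.47 ± 0.06 against 1.40 ± 0.12 (SD, n = 3 each). The log2 difference was 2.07 ± 0.246 (SE), a fold change of 4.19, with an adjusted p of 1.83e-07 (limma, Benjamini-Hochberg over 13207 genes). Aebp1 was at 4.76, 5.03 and 4.39 in the knockout-labelled libraries and at 2.83, 3.55 and 3.16 in the wild type. Its groups did not overlap either, and its difference was 1.55 ± 0.236, a fold change of 2.92, with an adjusted p of 1.16e-05 by limma. In this comparison all knockout-labelled libraries lay above all wild-type libraries for 26.4% of all genes, so a lack of overlap is common. In a whole muscle, more cells of a type and more RNA per cell cannot be told apart. By the call rule used throughout, an adjusted p below 0.05, 2 of the 10 genes and 18.3% of all genes tested were called, so the count itself does not set the list apart. The median difference was -0.12 over the 10 genes and 0.12 over all genes.

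The remaining 8 genes in this EDL comparison gave differences between -1.21 and 0.11. Mkx, which lies on chromosome 18, was at -1.87, -3.51 and -2.38 in the knockout-labelled libraries and at -1.39, -1.45 and -1.29 in the wild type. The knockout-labelled libraries all lay below the wild type and varied more, and the difference of -1.21 ± 0.546 had an adjusted p of 0.131 by limma. Fmod was at 4.70, 3.66 and 3.86 against 4.76, 4.81 and 4.95, and its adjusted p was 0.299 by limma. Here too every knockout-labelled library lay below the wild type. How often this holds over all genes was not counted, so it does not set Mkx or Fmod apart. Tnmd was at 2.46, 1.06 and 1.72 against 1.86, 2.14 and 2.01, so that the wild-type values lay inside the range of the knockout-labelled ones. For Thbs4 the libraries were at 4.45, 3.42 and 3.48 against 4.12, 4.17 and 4.24, likewise overlapping. The differences of the matricellular genes Tnc, Postn and Ctgf were close to 0, at 0.04, 0.01 and 0.11. Comp, at 1.27, 0.50 and 0.91 against 1.24, 1.45 and 1.3, had a difference of -0.43.

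Values of other cell types and of Bop1 stood as follows beside the rise of Scx and Aebp1 in this EDL comparison. None of 11 fibroblast markers was called, and their sum was 7.15 to 7.56 in the knockout-labelled libraries and 7.07 to 7.41 in the wild type. None of 12 macrophage markers was called, with sums of 5.04 to 6.27 against 4.85 to 6.31. None of 18 further genes of tendon was called, while their sum was 5.48 to 6.22 against 5.12 to 5.47, without overlap. Of the 7 slow-fibre genes 5 were called higher (sums of 4.48 to 7.12 against 4.46 to 6.41), and of 8 endothelial markers Kdr, the vascular endothelial growth factor receptor, was called lower. All 5 slow-fibre calls were lost when the 2 groups were fitted alone (adjusted p 0.0609 to 0.181, limma), that of Tnnt1 in 4 of 11 alternatives, and that of Kdr in 3 of 11. Of 6 satellite-cell markers Vcam1 was called higher, a call lost in 4 of 11 alternatives, and the median of the 6 was 0.74, with sums of 3.19 to 3.47 against 2.7 to 3.02, without overlap. The part of tendon, fibre type, vessels or satellite cells in the result was not tested. Bop1 had a difference of 0.47 ± 0.117 (adjusted p 0.00415, limma), smaller than that of Scx, and the part of shared reads was not tested.

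In EDL of the ERRalpha class only Scx of the 10 genes was called. Scx was at 1.75, 1.94 and 1.69 in the knockout-labelled libraries and at 1.19, 1.04 and 0.55 in the wild type, without overlap. Here all knockout-labelled libraries lay above all wild-type libraries for 13.5% of all genes. The difference was 0.87 ± 0.246, a fold change of 1.83, with an adjusted p of 0.0458 by limma. Of all genes tested 3.39% were called. This call is marginal: it was lost in 8 of 11 alternatives, among them the omission of any 1 of the 6 libraries other than wild-type library 1, and the adjusted p ranged from 0.0438 to 0.23. Aebp1 did not differ beyond the spread, at 4.2, 4.03 and 3.75 against 3.73, 4.45 and 3.39.

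Tnmd, Thbs4 and Comp shared a pattern among the knockout-labelled EDL libraries of the ERRalpha class. Tnmd was at -0.89, -0.37 and 1.29, against 1.27, 1.36 and 1.09 in the wild type. Thbs4 was at 2.24, 1.88 and 3.63, against 3.53, 3.78 and 3.62. Comp was at -1.34, -1.33 and 0.65, against -0.67, 0.50 and 0.28. For each of these genes knockout-labelled libraries 1 and 2 were below every wild-type library, and library 3 was not. Fmod followed them at 2.56, 2.36 and 4.35, against 2.99, 3.72 and 4.07. None of the 4 passed the test, with differences from -1.23 ± 0.563 for Tnmd to -0.5 ± 0.474 for Fmod and adjusted p of 0.29 or more (limma). The other genes of the list, Mkx, Tnc, Postn and Ctgf, had differences from -0.42 to 0.68, and none was called.

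None of the 10 genes was called by limma in ERRbeta/ERRgamma EDL, where 0.214% of all genes were. At an unadjusted p below 0.05, 945 of the 13091 genes tested passed, among them Scx and Aebp1. That looser threshold takes no account of the number of genes tested, so passing it is not a call. Scx was at 1.3, 1.2 and 1.2 in the knockout-labelled libraries and at 0.77, 0.45 and -0.21 in the wild type. The groups did not overlap, and the difference of 0.9 ± 0.246 was close to that of the ERRalpha class, but its adjusted p was 0.176 by limma. Aebp1 was at 3.48, 3.56 and 3.87 against 3.35, 2.87 and 3.22, also without overlap, with a difference of 0.49 ± 0.236 and an adjusted p of 0.69 by limma. Such a separation, with the knockout-labelled libraries above, held for 10.2% of all genes. The differences of the other 8 genes ran from -0.6 for Mkx to 0.44 for Comp. Tnc, for example, was at -2.66, -1.07 and -2.12 against -2.21, -1.11 and -2.86, with the groups intermixed.

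Whether the EDL differences of Scx and Aebp1 depended on the class was then tested within the same fit, a comparison added after the values were seen. The difference of Aebp1 was larger in the ERRalpha/ERRgamma class than in the ERRalpha class by 1.41 ± 0.333, with an adjusted p of 0.00773 (limma), and this call held in all 17 alternatives. The difference of Scx was larger by 1.2 ± 0.348, adjusted p 0.0394 by limma, a call lost in 11 of 17 alternatives. These 2 were the only genes of the 10 called, beside 4.98% of all genes. Against the ERRbeta/ERRgamma class the margins were 1.17 ± 0.348 for Scx (adjusted p 0.0348, limma) and 1.06 ± 0.333 for Aebp1 (adjusted p 0.0498, limma), beside 7.16% of all genes. Those calls were lost in 10 and 12 of 17 alternatives. Between the 2 other classes the margin was 0.03 ± 0.348 for Scx and 0.35 ± 0.333 for Aebp1, and neither was called.

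**Figure D2:**
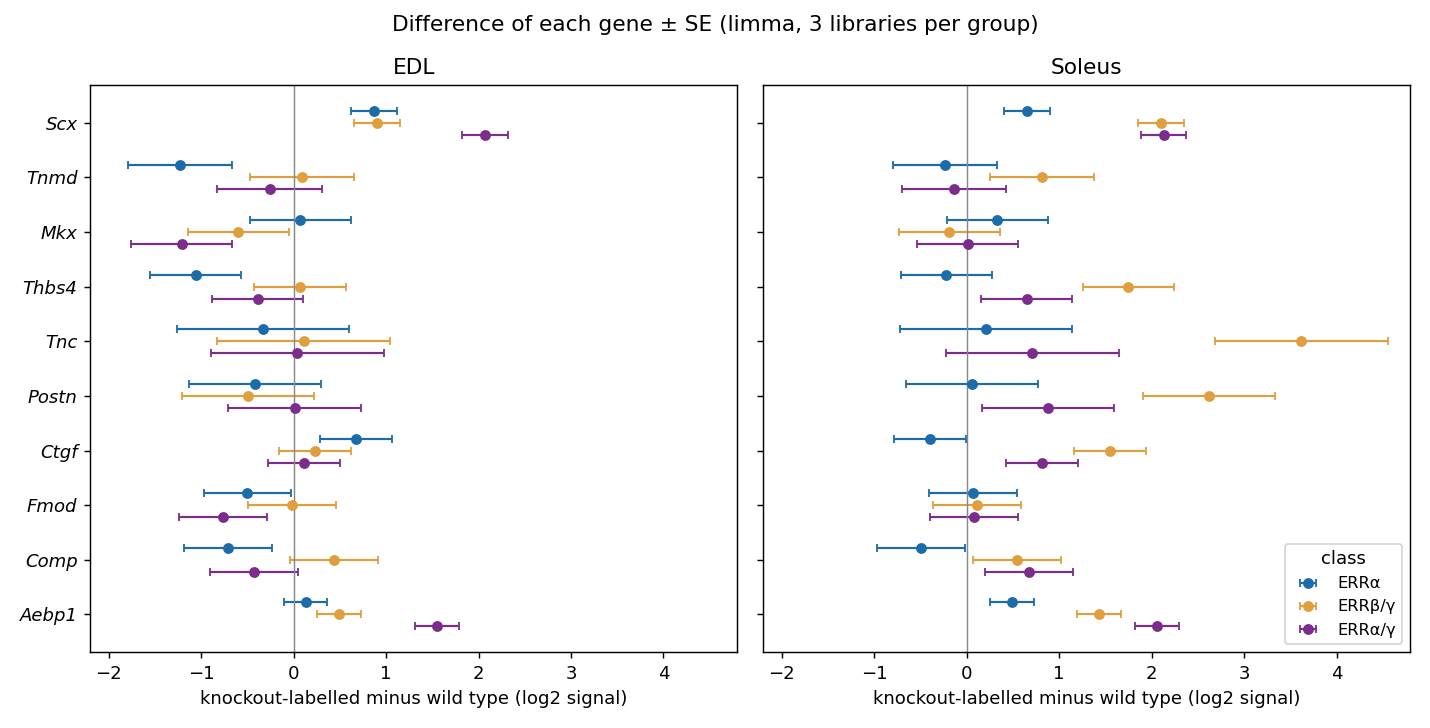
Points give the log2 difference, knockout-labelled minus wild type, of each gene in each deletion class, with bars of 1 standard error of the fit; EDL is on the left and soleus on the right. In the ERRalpha/ERRgamma class Scx and Aebp1 lie at 2.07 and 1.55 in EDL and at 2.13 and 2.06 in soleus, and the soleus values are those that chose the genes.

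In soleus the contrasts that chose the genes are described without a test. In the ERRalpha/ERRgamma class Scx was at 4.49, 4.71 and 4.17 in the knockout-labelled libraries and at 2.52, 2.16 and 2.31 in the wild type, a difference of 2.13 ± 0.246 and a fold change of 4.37. Aebp1 was at 5.07, 4.68 and 4.37 against 2.55, 2.42 and 2.95, a difference of 2.06 ± 0.236 and a fold change of 4.18. Both genes thus stood clear of the wild type in every library. Ctgf was at 4.70, 4.45 and 4.86 against 4.27, 3.57 and 3.73, and Comp at 1.89, 1.29 and 1.61 against 1.00, 1.04 and 0.75. These 4 genes were those of the 10 whose knockout-labelled libraries all lay above the wild type, which was so for 21.7% of all genes. Bop1, the gene that overlaps Scx, differed by 0.52 ± 0.117.

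Postn, Tnc and Thbs4 were higher on average in this class of soleus, with overlap. Postn was at 3.73, 2.76 and 2.32 against 2.54, 1.89 and 1.73. Tnc was at -1.10, -2.53 and -2.84 against -1.96, -3.54 and -3.09. Thbs4 was at 5.46, 4.37 and 4.61 against 4.43, 4.10 and 3.95. For all 3 genes knockout-labelled library 1 was the highest, and the lowest knockout-labelled library lay within the wild-type range of Postn, Tnc and Thbs4. The tendon genes Tnmd, Mkx and Fmod differed by -0.14, 0.01 and 0.08. The median over the 10 genes was 0.69, against 0.11 over all genes. The summed fibroblast markers were 8.16 to 8.45 in the knockout-labelled libraries and 7.52 to 8.38 in the wild type, and the macrophage markers 6.91 to 7.3 and 6.1 to 6.64. Of 7 fast-fibre genes Actn3 and Mybpc2 were higher, by 2.16 ± 0.58 and 1.35 ± 0.44, and Tnnt3 was lower, at -0.77 ± 0.163. The endothelial gene Tie1, at -0.43 ± 0.112, and the Schwann cell gene Mbp, at -1.77 ± 0.542, were lower, and the median of the 8 Schwann cell genes was -0.98. Their part in these values was not tested.

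In soleus of the ERRbeta/ERRgamma class the differences were the widest for Tnc, at 3.62 ± 0.934, and Postn, at 2.62 ± 0.716, and they came from 2 libraries. Tnc was at 3.53, -2.79 and -0.07 in the knockout-labelled libraries and at -2.81, -2.18 and -5.19 in the wild type. The last value is close to the filter threshold on gene means of -5.24, and it widens the difference. Postn was at 5.33, 2.73 and 6.82 against 1.95, 4.17 and 0.91. Thbs4 was at 6.46, 3.59 and 6.20 against 3.70, 4.25 and 3.03. For all 3 genes library 2 lay within the wild-type range, and libraries 1 and 3 lay above it. Those 2 libraries also had fibroblast and macrophage sums above their wild type, library 3 only just so for macrophages. Ctgf was at 5.48, 4.33 and 6.08 against 3.41, 4.01 and 3.82, highest in the same 2 libraries. Cd68, a lysosomal macrophage protein, was at 5.07, -0.03 and 1.70 against -0.01, 1.45 and -0.98, and the collagen gene Col1a1 was at 4.50, 2.23 and 5.04 against 2.07, 3.71 and 1.73. The EDL libraries of the same animals did not show it: Tnc in EDL libraries 1 and 3 was at -2.66 and -2.12, and Postn at -0.33 and -0.66.

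Scx and Aebp1 in this class of soleus were less tied to those libraries. Aebp1 was at 3.60, 3.57 and 3.71 against 2.35, 2.10 and 2.17, nearly level among the knockout-labelled libraries. Scx was at 4.16, 3.03 and 3.93 against 1.40, 1.83 and 1.61, with library 2 the lowest of the 3 and still above the wild type. Scx, Ctgf and Aebp1 were the 3 genes of the 10 without overlap, which was so for 9.13% of all genes. With libraries 1 and 3 left out, which leaves 1 knockout-labelled library, the difference went from 2.1 to 1.42 for Scx and from 1.43 to 1.37 for Aebp1. It went from 3.62 to 0.61 for Tnc, from 2.62 to 0.39 for Postn, from 1.75 to -0.07 for Thbs4 and from 1.55 to 0.58 for Ctgf. The median over the 10 genes went from 1.49 to 0.29. Bop1 differed by 0.82 ± 0.117 in the 3 libraries.

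**Figure D3:**
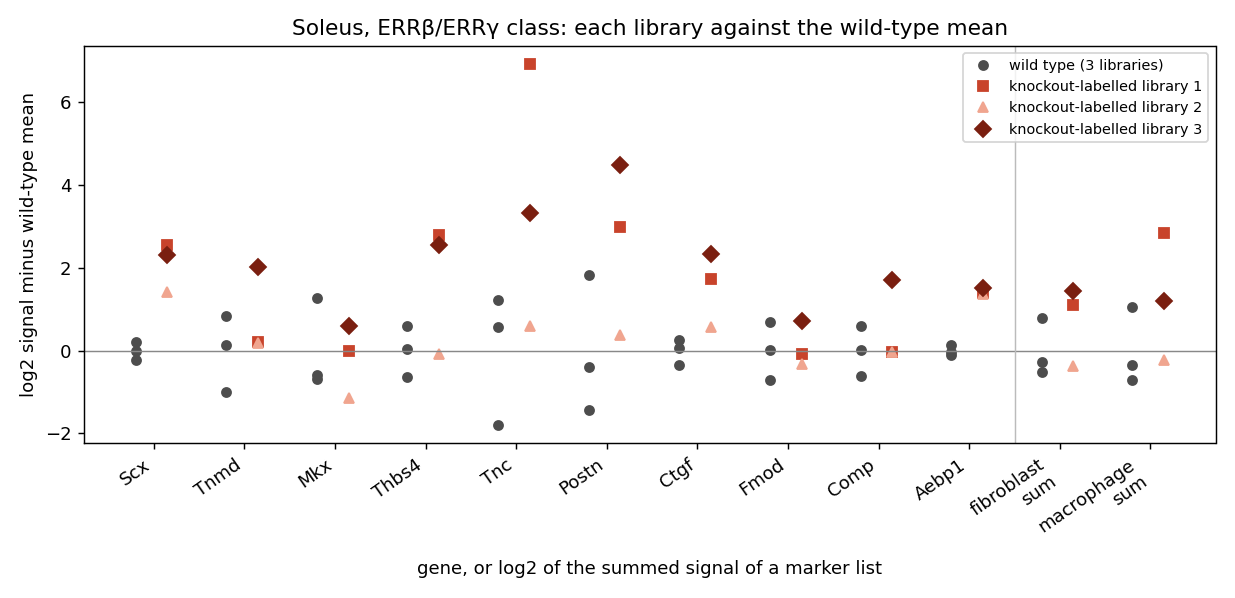
Each point is 1 soleus library of the ERRbeta/ERRgamma class minus the mean of the 3 wild-type libraries (log2), for the 10 genes and for the summed fibroblast and macrophage markers. Knockout-labelled libraries 1 and 3 lie above the wild type for Tnc, Postn and Thbs4 and for both marker sums, library 3 only just so for the macrophage sum. Aebp1 is nearly the same in all 3.

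In ERRalpha soleus no difference among the 10 genes exceeded that of Scx, 0.65. Scx was at 1.63, 2.59 and 2.42 in the knockout-labelled libraries and at 1.31, 1.74 and 1.65 in the wild type, with library 1 inside the wild-type range. Aebp1 was at 2.76, 2.79 and 2.5 against 2.70, 2.06 and 1.82, also overlapping. Mkx, at -1.33, -0.94 and -1.32 against -1.58, -1.40 and -1.60, was the 1 gene of the 10 without overlap, which was so for 7.48% of all genes. Postn was at 1.10, 3.16 and 1.2 against 1.42, 1.63 and 2.24, high in library 2 alone. The differences of the 10 genes ran from -0.49 for Comp to 0.65 for Scx.

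Across the 12 groups the mean log2 signal of Scx was highest in the ERRalpha/ERRgamma knockout-labelled soleus, at 4.46 ± 0.27 (SD, n = 3). Next came the knockout-labelled soleus of the ERRbeta/ERRgamma class, at 3.71 ± 0.60, and the ERRalpha/ERRgamma knockout-labelled EDL, at 3.47 ± 0.06, which do not differ beyond their spread. The lowest mean was that of wild-type EDL of the ERRbeta/ERRgamma class, at 0.34 ± 0.50. For Aebp1 the ERRalpha/ERRgamma knockout-labelled EDL, at 4.73 ± 0.32, and soleus, at 4.71 ± 0.35, were highest and level with each other, and wild-type soleus of the ERRalpha class, at 2.19 ± 0.45, and of the ERRbeta/ERRgamma class, at 2.20 ± 0.13, were lowest and did not differ beyond their spread.

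The 9 wild-type libraries of each muscle were then compared, to ask how the genes differ between a slow and a fast muscle. The wild-type soleus libraries also served in the contrasts that picked Scx, Tnc, Postn, Thbs4 and Aebp1, a choice that favours low values in wild-type soleus, so these 5 are described with no test. Of the genes not picked, Ctgf and Fmod passed the threshold and Tnmd, Mkx and Comp did not. Of all genes 55.5% passed it, so a call is common between these muscles. Postn was higher by 1.76 ± 0.413 (SE), with a lowest, median and highest value of 0.91, 1.89 and 4.17 in soleus and -0.38, 0.27 and 1.33 in EDL. Ctgf was higher by 1.7 ± 0.225 (adjusted p 1.96e-07, limma), at 3.41, 3.82 and 4.51 against 1.00, 2.28 and 3.32. Scx was higher by 0.95 ± 0.142, at 1.31, 1.74 and 2.52 against -0.21, 1.04 and 1.49. Tnc had a difference of -1.55 ± 0.539, at -5.19, -3.09 and -1.96 against -2.86, -1.38 and -0.94, with the lowest soleus value close to the filter threshold. Aebp1 had a difference of -1.05 ± 0.136, at 1.82, 2.35 and 2.95 against 2.83, 3.35 and 4.45. Fmod was lower by -1.03 ± 0.273 (adjusted p 0.00216, limma), at 2.07, 3.06 and 3.75 against 2.99, 4.07 and 4.95.

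Tnmd, Mkx and Comp were not called between the muscles, with differences of 0.18 ± 0.325, 0.31 ± 0.315 and 0.14 ± 0.275, and Thbs4 had a difference of 0.07 ± 0.285. Tnmd ran from 0.66 to 2.57 in soleus and from 0.67 to 2.35 in EDL, nearly the same range. Scx and Aebp1, the pair that rose together in ERRalpha/ERRgamma knockout-labelled EDL, differed in sign between the wild-type muscles. The fibroblast markers were called higher in soleus for 7 of 11 genes and the macrophage markers for 7 of 12, and the part of these cells in the differences was not tested. Using the animal as a block, for the mice that gave both muscles, kept the calls of Ctgf and Fmod.

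Further genes of tendon, matrix and TGF-beta signalling, taken from lists chosen with earlier results of these data known, were set beside the 10. In ERRalpha/ERRgamma EDL none of 18 further genes of tendon and the muscle-tendon junction was called, with a median of 0.04. Of 21 further matricellular genes 1 rose: Cyr61, a close relative of Ctgf, by 1.03 ± 0.282 (adjusted p 0.00913, limma, and 0.0538 without wild-type library 2). Of 25 genes of TGF-beta signalling 4 rose and none fell. Fst, which encodes the activin and myostatin antagonist follistatin, rose by 1.15 ± 0.316 (adjusted p 0.00998, limma). Ltbp3, a binding protein of latent TGF-beta, rose by 0.64 ± 0.175 (adjusted p 0.00886, limma, and 0.0592 without wild-type library 2). Tgfb2, a TGF-beta ligand, rose by 0.56 ± 0.192 (adjusted p 0.0413, limma), a call lost in 5 of 11 alternatives. Of 21 integrin and receptor genes Itga7, the laminin receptor subunit of muscle fibres, was called at 0.51 ± 0.179, a call lost in 8 of 11 alternatives. None of 9 small proteoglycans and none of 17 collagen cross-linking genes was called. The share of called genes in these lists lies at or below the 18.3% of all genes.

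Those lists had no called gene in EDL of the ERRalpha class, in EDL of the ERRbeta/ERRgamma class or in soleus of the ERRalpha class. By limma 0.719% of all genes were called in the last of these. For ERRalpha EDL the median of the 18 tendon genes was -0.4, with Kera, the corneal and tendon proteoglycan keratocan, the nearest to a call at -1.06. In soleus, counts are given as a description. In the ERRalpha/ERRgamma class, where 12.8% of all genes were called, Cyr61 and Smoc2 of the matricellular genes, Aspn of the proteoglycans, Fst of TGF-beta signalling and Itga7 were called higher, and P4ha2 of collagen cross-linking was called lower. Each of these calls is fragile: of 11 alternatives it was lost in 8 for Smoc2, 7 for Itga7, 6 for Fst, 6 for P4ha2, 4 for Aspn and 2 for Cyr61, and that of Fst on leaving out any 1 of the 6 libraries. Aspn, which encodes a collagen-binding proteoglycan, differed by 1.29 ± 0.38. In the ERRbeta/ERRgamma class 6.78% of all genes were called, and 3.2% were called higher. In these lists 12 genes were called higher, among them Cilp, Efemp2, Bgn, Loxl3, Lox and Itga7. They were 1 of 18 tendon genes, 2 of 21 matricellular genes and 1 of 9 proteoglycans. The others were 3 of 17 cross-linking, 1 of 26 TGF-beta and 4 of 21 integrin and receptor genes. The calls of Cilp, Efemp2, Bgn and Lox were each lost in some of the alternatives that leave out 1 library. Over the alternatives the difference ran from 0.33 to 2.74 for Cilp, 0.14 to 1.67 for Bgn and -0.39 to 2.91 for Lox. Without knockout-labelled libraries 1 and 3 a single library is left, so calls are not compared; the median difference of the matricellular list went from 0.54 to -0.07, that of the cross-linking list from 0.75 to -0.20 and that of the tendon list from 0.56 to 0.17.

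Between the wild-type muscles the share of called genes in the tendon, matricellular and proteoglycan lists lay at or below the 55.5% of all genes. Counts of calls in either direction thus do not set those lists apart. By direction, 31.4% of all genes were called higher and 24.1% lower, and the matricellular and proteoglycan calls were mostly higher. Of the 24 TGF-beta genes 9 were called higher and 7 lower, a share above that of all genes. What lies behind these shares was not tested. Col11a2, Col22a1 (a collagen of the muscle-tendon junction) and Kera were lower in soleus, by -2.24 ± 0.209, -1.39 ± 0.166 and -2.23 ± 0.269. In all 5 of 18 were lower and 4 were higher. Of the 20 further matricellular genes 10 were higher and 1 was lower, with Cyr61 at 1.83 ± 0.163. Of the 9 small proteoglycans 4 were higher and none was lower, with Aspn at 2.3 ± 0.22, while Fmod was lower. Among the called genes, Chad of the tendon list lost its call in 8 of 24 alternatives, and Efemp1 and Ecm1 of the matricellular list in 9 and 7 of 24 (limma). Tgfbr1 of the TGF-beta list lost its call in 4 of 24.

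Within groups, several of the genes varied together from library to library. This was examined for Tnmd, the most tendon-restricted gene of the list by its known role, with each other gene, as deviations from the group mean in the 18 libraries of a muscle, after the values had been seen. In EDL, Tnmd rose and fell with Thbs4 (Pearson r 0.87, permutation p 0.00249, adjusted 0.0324 over 18 relations; Spearman rho 0.86, permutation p 0.000793, adjusted 0.0104) and with Fmod (r 0.8, permutation p 0.00834, adjusted 0.0416; rho 0.7, permutation p 0.0119, adjusted 0.0533). Without the 2 libraries farthest from the median, r was 0.83 for Thbs4 and 0.71 for Fmod. In soleus it varied with Fmod (r 0.82, permutation p 0.0036, adjusted 0.0324; rho 0.86, permutation p 0.00116, adjusted 0.0104), and r was 0.89 without the 2 farthest. Postn in soleus had r 0.76 (permutation p 0.00924, adjusted 0.0416) and rho 0.72 (permutation p 0.0108, adjusted 0.0533), with r 0.62 without the 2 farthest. The same soleus libraries served to pick Scx, Tnc, Postn, Thbs4 and Aebp1, which limits the soleus tests of these genes. Deviations from the group means leave out the group differences used for that choice. Comp in soleus had r 0.73 (permutation p 0.0129, adjusted 0.0464) and rho 0.61 (permutation p 0.0343, adjusted 0.103), with r 0.56 without the 2 farthest. With the ERRbeta/ERRgamma knockout-labelled group left out, r in soleus was 0.82 for Fmod, 0.76 for Postn and 0.57 for Comp over 15 libraries. Thbs4 and Tnc, which had r of 0.58 and 0.35 in all 18 soleus libraries and did not pass the test there (permutation, adjusted p 0.149 and 0.524), had r of 0.82 and 0.83 and rho of 0.81 and 0.79 without that group, given with no test. Scx and Aebp1 did not follow Tnmd: r was -0.1 and -0.37 in EDL and 0.28 and -0.13 in soleus, and none of these 4 passed the test (permutation, adjusted p 0.84, 0.145, 0.524 and 0.696).

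**Figure D4:**
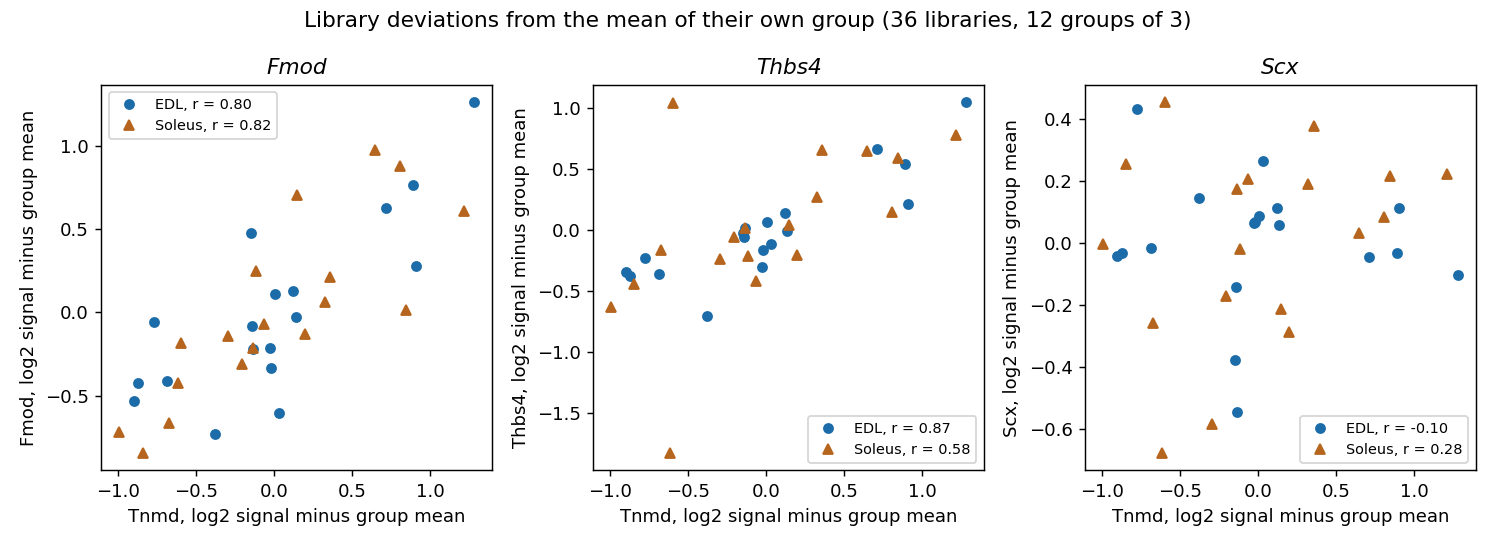
Each point is 1 library, placed by the deviation of Tnmd (horizontal) and of Fmod, Thbs4 or Scx (vertical, 1 panel per gene) from their group means in log2 units. Each panel holds both muscles, EDL as circles and soleus as triangles. Fmod follows Tnmd in both muscles (r 0.8 and 0.82), and Scx does not (r -0.1 and 0.28).

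Likeness of pattern over all 36 libraries is given as a description, since these libraries share muscles, genotypes and animals. The genes most like Thbs4 by Pearson r, of 11904 compared, were the fibrillar and fibril-associated collagens Col12a1 (0.89), Col5a2 (0.84) and Col1a1 (0.84). Those most like Tnmd were Col12a1 (0.82), Abi3bp (0.76) and Col1a2 (0.75). Postn was most like Col8a1 (0.92), Col5a2 (0.91) and Calu (0.9), and Ctgf most like Col8a1 (0.94), Aspn (0.91) and Pkig (0.91). Fmod was most like Chad, a cartilage leucine-rich repeat protein (0.85), Chrdl1 (0.74) and Shisa3 (0.72), and Comp most like Serpinf1 (0.85), Prelp (0.83) and Antxr1 (0.81). Tnc stood nearest to Tspan9 (0.84), Ankrd1 (0.82) and Calr (0.8). No collagen led for Scx, whose nearest genes were Cdc42se1 (0.91), Rplp0 (0.91) and Arfgap3 (0.9), or for Aebp1, whose nearest were Zdhhc18 (0.89), Jsrp1 (0.88) and Fam104a (0.86). Mkx was nearest to Trmu (0.64), Mrps6 (0.61) and Diaph2 (0.6). Among the 10 genes themselves, the nearest to Scx was Ctgf (0.66) and the nearest to Aebp1 was Scx (0.48), while Postn and Ctgf were each other's nearest (0.86).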

How the data were processed

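RNA of EDL and soleus was sequenced from 36 samples. Libraries were made from 400 ng of RNA with 10 PCR cycles and a directional kit, per the labels' protocols. The authors deposited 1 table of log2 quantile-normalised signals per gene symbol; Partek 6.6 and GRCm38.p6 are named in the submitters' processing notes, and aligner, counting method and the unit before the logarithm are not stated there or in the labels. Base 2 was read from the steps between the lowest values (882 of 4097 values 0.9 to 1.3 above the lowest, 39 at 0.4 to 0.8, over 328 rarely detected genes). Depth is unknown, so no counting interval is given. Quantile normalisation forces equal distributions on all libraries and can shift genes that did not change. In the ERRalpha/ERRgamma class the median over all genes of the difference, knockout-labelled minus wild type, was 0.12 in EDL and 0.11 in soleus. As an alternative, libraries were recentred to a common median over the kept genes with a value in all libraries. These library medians ran from 1.76 to 2.01 before recentring.

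Of 45802 rows, 27904 had no value and 27 had a date in place of a symbol. Genes whose mean lay above the 25th percentile (-5.24) were kept (13404), and each comparison tested those with at least 2 values in each group. limma 3.58.1 in R 4.3.3 was fitted with 1 mean per group over all 36 libraries and an intensity trend, with Benjamini-Hochberg adjustment over all genes tested and a threshold of 0.05; the fit was tested on simulated data. Permutations of Tnmd relations were exact, two-sided and within groups (46656 arrangements; Python 3.11.15, scipy 1.17.1). The series design calls the 3 samples of a group biological replicates. Samples were grouped by their titles, and columns by muscle, class and Cre mark; replicate numbers of the labels could not be tied to columns. Libraries of the 2 muscles of an animal deviated together only weakly (within-animal correlation 0.13 across genes); 7 wild-type animals gave both muscles. The genes named were the 10 members, the receptors and, in each further list, called genes or the gene nearest to a call; likeness named the 3 genes with the highest r. The values of 1 called gene of the TGF-beta list are not reported here. The members and all lists were chosen with earlier results of these data known. Alternatives were no filter, missing values at the lowest value, recentring, no trend, a fit of the groups compared alone, the animal block and leaving out each library.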

Additional observations from a re-analysis of the deposited data

Results flagged for a closer look

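In wild-type soleus, 1 library of 9 lay far from the others for Postn: library 2 of the ERRbeta/ERRgamma class was at 4.17, and the next highest was at 2.54. The gap was 0.501 of the range of the 9 libraries, above Dixon's 95% critical value for 9 samples. Chance gives such a mark in about 1 of 20 groups, and 20 groups of 9 were examined.

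In EDL, the knockout differences of Aebp1 and Scx differed between classes by a test of the difference itself, added after the values were seen. Against the ERRalpha class the ERRalpha/ERRgamma difference was larger by 1.41 for Aebp1 and by 1.2 for Scx. Against the ERRbeta/ERRgamma class it was larger by 1.06 for Aebp1 and by 1.17 for Scx. The first of these kept its call in 17 of 17 alternatives, with adjusted p from 0.00168 to 0.0435 (limma). The call of Scx against the ERRalpha class was lost on leaving out any 1 of 12 libraries other than ERRalpha knockout-labelled library 2 or wild-type library 3. Against the ERRbeta/ERRgamma class, the call of Scx was lost on leaving out any library other than wild-type library 3 of either class, and that of Aebp1 on leaving out any other than wild-type library 2 or knockout-labelled library 3 of either class. The adjusted p of Scx ran from 0.00402 to 0.114 against the ERRalpha class and from 0.00674 to 0.132 against the ERRbeta/ERRgamma class, and that of Aebp1 against the latter from 0.024 to 0.15 (limma).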

How the results depend on the processing

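Scx and Aebp1 in ERRalpha/ERRgamma EDL kept direction and call in 11 of 11 alternatives each, with values of 2.0 to 2.11 and 1.37 to 1.73. Of 638 values of members under an alternative, in EDL and between wild-type muscles, 570 kept direction and side of the threshold, 41 lost the call and 27 reversed. The reversed values among these were all of uncalled genes. The values between wild-type muscles include those of Scx, Tnc, Postn, Thbs4 and Aebp1, which are described there with no test. Depth is unknown, so what it limits cannot be given. Where a call or count changed, the cause was not tested.

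With the groups compared fitted alone, genes called fell to 216 in ERRalpha EDL, 4 in ERRbeta/ERRgamma EDL, 2 in soleus of the ERRalpha class and 4 in soleus of the ERRbeta/ERRgamma class, where the fit over all groups gave 441, 28, 95 and 898. Members called in ERRalpha EDL were 0 with no filter, with no trend and with the groups alone. Members called in the margin over the ERRalpha class were 1 with no trend, and over the ERRbeta/ERRgamma class 1 with no filter, missing values at the lowest value, recentring or no trend. Leaving out libraries 1 and 3, with the lone library assumed to vary like the other groups, gave 86 genes in soleus of the ERRbeta/ERRgamma class, 64 of them among the 898.

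Leaving out 1 library gave 231 to 300 genes and 0 to 1 members in ERRalpha EDL, 11 to 23 genes in ERRbeta/ERRgamma EDL, 24 to 74 genes in soleus of the ERRalpha class, and 405 (without knockout-labelled library 1) to 2154 (without library 2) in soleus of the ERRbeta/ERRgamma class. Members called in the margins were 1 to 2 over the ERRalpha class and 0 to 1 over the ERRbeta/ERRgamma class. Members without overlap in soleus were 1 to 3 (ERRalpha), 3 to 6 (ERRbeta/ERRgamma) and 4 to 7 (ERRalpha/ERRgamma). Leaving out a library can only keep or raise this count, so the range says nothing of how firm it is. The share of all genes under the same omissions was not counted.

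Reversed on recentring were Tnc (-0.02) and Postn (-0.05) in ERRalpha/ERRgamma EDL, and without libraries 1 and 3 Thbs4 was at -0.07, Comp at -0.04 and Fmod at -0.32 in ERRbeta/ERRgamma soleus, where Mkx ranged from -1.15 to 0.45. Other soleus differences, untested, whose range over alternatives crossed 0 were in the ERRalpha class Tnmd (-0.57 to 0.18), Tnc (-0.18 to 0.71), Postn (-0.62 to 0.42) and Fmod (-0.27 to 0.51), and in the ERRalpha/ERRgamma class Tnmd (-0.46 to 0.29), Mkx (-0.61 to 0.47) and Fmod (-0.41 to 0.51). Reversed on leaving out 1 library, by their ranges, were in ERRalpha EDL Mkx (-0.14 to 0.42), Tnc (-0.69 to 0.01) and Aebp1 (-0.1 to 0.43). In ERRbeta/ERRgamma EDL they were Tnmd (-0.36 to 0.54), Thbs4 (-0.2 to 0.26), Tnc (-0.33 to 0.58), Ctgf (-0.02 to 0.42) and Fmod (-0.4 to 0.19). In ERRalpha/ERRgamma EDL they were Tnmd (-0.61 to 0.09), Tnc (-0.39 to 0.29), Postn (-0.35 to 0.34) and Ctgf (-0.09 to 0.38). Between the wild-type muscles it was Thbs4 (-0.03 to 0.18).

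With the animal as a replicate block, the wild-type muscles gave 7402 genes, and all 7139 genes called without the block were among them. The block left Ctgf and Fmod called and Tnmd, Mkx and Comp uncalled. Knockout-labelled and wild-type libraries came from different animals by the column names, so no animal pairs them. The labels and column names do not say which mice shared a litter.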
